A study of Mus musculus with 367 samples.

Results

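The 7 genes described here are the platelet-derived growth factor (PDGF) ligands Pdgfa, Pdgfb, Pdgfc and Pdgfd, the receptors Pdgfra and Pdgfrb, and the receptor-like gene Pdgfrl. They were chosen by symbol, and all 7 were found among the 50600 genes of the deposited matrices. Full-length single-cell RNA-seq was carried out on cells from healing mouse skin at 12, 15 and 21 days post-wounding (PWD12, PWD15 and PWD21). The 367 cells came from 7 microfluidic captures, of which 3 were made at PWD12 (159 cells), 2 at PWD15 (117 cells) and 2 at PWD21 (91 cells). After limits on depth, gene number and mitochondrial share, 292 cells were kept.

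All groups shared the same genotype, Sm22-Cre;tdTomato, on a mixed background. Sm22 is an older name for Tagln, whose promoter drives Cre in smooth muscle and in other contractile cells, so the tdTomato label also marks any cell that had once used it. The labels give the mice as 3 to 8 weeks old, with a square excisional wound of 1.5 cm a side on the back and no other agent. Wounds of 2 to 3 animals were pooled at each time point, and only viable cells with high tdTomato were captured, on a chip for cells of 17 to 25 µm. Unwounded skin and tdTomato-negative cells were not analysed here. The methods name animals as the replicates, but the labels tie no capture to an animal, so p-values below measure the spread between captures, which may be technical.

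PDGF ligands are dimers that bring receptor chains together, after which the receptors phosphorylate each other and recruit SH2-domain proteins. The A and B ligands are released in active form, whereas the C and D ligands carry a CUB domain that must be cut off by a protease. PDGF-A and PDGF-C act mainly through the alpha receptor, PDGF-D mainly through the beta receptor, and PDGF-B through either. In skin, the alpha receptor is a familiar mark of fibroblasts and the beta receptor of pericytes, which wrap small vessels.

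Kept cells were sorted into kinds by 3 genes that are no members, with levels in FPKM, that is, fragments scaled to the transcript's length and the cell's depth. Matrix cells had Col1a1 of at least 1000 FPKM with Rgs5 below 100 and Tyrobp below 50. Mural cells had Rgs5 of at least 500 with Tyrobp below 50, and myeloid cells had Tyrobp of at least 500. This gave 198 matrix, 57 mural and 26 myeloid cells, and left 11 cells in no kind. By capture, matrix cells numbered 31, 26 and 17 at PWD12, 50 and 22 at PWD15, and 18 and 34 at PWD21. Mural cells numbered 9, 7 and 14 at PWD12, 18 and 1 at PWD15, and 8 and 0 at PWD21. A capture entered a comparison with at least 3 cells of a kind, which left 7 captures for matrix, 5 for mural and 4 for myeloid cells. In the text, a level is the mean FPKM over the cells of 1 kind in 1 capture. FPKM is per length, so levels of different genes can be set side by side.

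Marker lists were summed without Col1a1, Rgs5 and Tyrobp, since these set the kinds. Summed over the other 8 genes of the mural list (Notch3, Kcnj8, Abcc9, Cspg4, Mcam, Higd1b, Cox4i2 and Ndufa4l2), captures reached 1765 to 2641 FPKM in mural cells against 1.21 to 62.4 in matrix cells. The other 9 genes of the myeloid list summed to 20555 to 31332 FPKM in myeloid cells, 0.301 to 93.5 in matrix cells and 0.0556 to 53.5 in mural cells. The other 5 genes of the fibroblast list were not confined to matrix cells, with 16202 to 31968 FPKM there, 3506 to 12615 in mural cells and 67.9 to 10583 in myeloid cells. The endothelial list of 7 genes summed to at most 87.2 FPKM in mural, 7.50 in matrix and 0.591 in myeloid captures. In mural cells 2 of its genes averaged at least 1 FPKM, with Egfl7 highest at 8.93, while Cdh5 and Tek were at 0. The keratinocyte list of 3 genes reached at most 0.195 FPKM. Median depth was 1438760 fragments a cell in matrix, 1218580 in mural and 2099890 in myeloid cells. Within PWD12 capture 2 and PWD21 capture 2, 3 pairs of matrix cells had near-identical profiles (Pearson r of 0.964, 0.890 and 0.851 across genes, against a median of 0.509 for each cell's closest partner). Leaving out 1 cell of each pair did not change which members passed the tests between kinds.

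Receptors were examined first. Pdgfra, on chromosome 5 (75152292 to 75198215, plus strand, GRCm38), encodes the alpha receptor. The 250 bases before its RefSeq start (chr5:75152001-75152250, plus strand, GRCm38.p6) are shown because this gene passed the test in both comparisons between kinds. They hold neither of the promoter motifs searched on either strand, which were the letters GGGCGG (known as the GC box) and the letters TATAAA (known as the TATA box), whereas 32.7% and 12.4% of 32851 mouse windows of 250 bases hold them.
Pdgfra: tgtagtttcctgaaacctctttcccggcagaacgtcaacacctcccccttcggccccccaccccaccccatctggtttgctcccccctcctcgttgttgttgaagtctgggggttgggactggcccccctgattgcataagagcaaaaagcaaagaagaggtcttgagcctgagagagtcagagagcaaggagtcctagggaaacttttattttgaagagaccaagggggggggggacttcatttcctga

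In matrix cells Pdgfra stood at 51.1, 55.6 and 45.8 FPKM in the 3 PWD12 captures, 44.8 and 38.2 at PWD15, and 63.2 and 65.1 at PWD21. The mean was 51.98 ± 9.95 FPKM (SD, n = 7 captures). In mural cells the levels were 2.67, 0 and 12.1 FPKM at PWD12, 1.90 at PWD15 and 7.02 at PWD21. Every mural capture lay below every matrix capture, with no overlap. The difference, mural minus matrix on the log2(FPKM + 1) scale, was -3.69 ± 0.67 (SE, 5 captures; limma, adjusted p = 0.0249), lower in 5 of 5 captures. In myeloid cells Pdgfra was at 0.846 FPKM in PWD12 capture 2, 9.28 in PWD15 capture 2, 4.10 in PWD21 capture 1 and 0 in PWD21 capture 2. These too lay below all matrix captures (difference -4.14 ± 1.09, 4 captures; limma, adjusted p = 0.0461).

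The beta receptor gene Pdgfrb showed the opposite order. Its matrix levels were 38.2, 28.8 and 29.6 FPKM at PWD12, 30.8 and 23.3 at PWD15, and 35.5 and 21.8 at PWD21 (mean 29.7 ± 5.95, SD, n = 7). Its mural levels were 113, 52.5 and 273 FPKM at PWD12, 80.6 at PWD15 and 148 at PWD21 (mean 133 ± 85.9, SD, n = 5). All mural captures were above all matrix captures, yet the difference of 1.79 ± 0.46 did not pass the test over all genes (limma, adjusted p = 0.0947). In myeloid cells Pdgfrb was at 1.46, 2.99, 2.91 and 0.0833 FPKM, below every matrix capture. That difference, -3.46 ± 0.96, also missed the threshold (limma, adjusted p = 0.0529), with a 95% interval from -5.55 to -1.36. It passed in 5 of the other settings run and missed in 11. Among the 5 were cells scaled to a total of 1000000, means of log2 values over cells, weights by number of cells and no capture block (limma, adjusted p = 0.0401, 0.0135, 0.0370 and 0.0244). The other of the 5 left out the 4 myeloid cells with Col1a1 of at least 1000 FPKM. Those cells held 96.8% of myeloid Pdgfrb, so that setting is no support. Leaving out any 1 capture gave an adjusted p of 0.0843 to 0.159 (limma), and the highest over the other settings was 0.238.

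**Figure D1:**
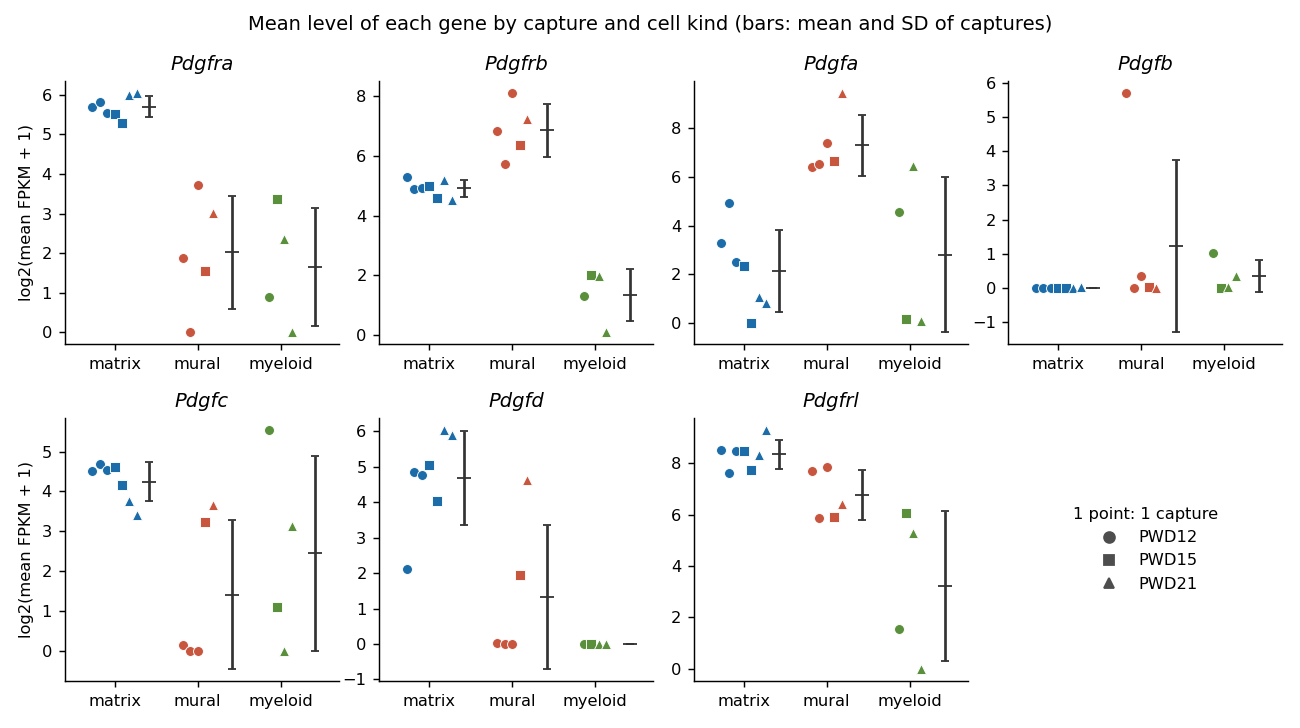
Levels of the 7 genes as log2(mean FPKM + 1) on the vertical axis, by cell kind, 1 point per capture with at least 3 cells and the marker shape giving the day. Bars show the mean and SD of captures. Pdgfra points of mural and myeloid cells lie below all matrix points, Pdgfrb and Pdgfa points of mural cells lie above all matrix points, and Pdgfd is at 0 in every myeloid capture.

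Set against each other within captures, the receptors changed order between kinds. With 1 FPKM added to each level, the log2 ratio of Pdgfra to Pdgfrb in matrix cells was 0.41, 0.92 and 0.61 at PWD12, 0.52 and 0.69 at PWD15, and 0.81 and 1.54 at PWD21. In mural cells this log2 ratio was -4.96, -5.74 and -4.39 at PWD12, -4.82 at PWD15 and -4.21 at PWD21. Pdgfra was the higher receptor in 7 of 7 matrix captures and the lower in 5 of 5 mural captures.

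Detection, meaning a value above 0, ordered the kinds as the levels did for each receptor. Within matrix and myeloid cells, however, Pdgfrb was detected in more cells than Pdgfra. Pdgfra was detected in 171 of 198 matrix cells (86.4%, exact 95% interval 80.8 to 90.8%), 17 of 57 mural cells (29.8%, 18.4 to 43.4%) and 5 of 26 myeloid cells (19.2%, 6.55 to 39.4%). Pdgfrb was detected in 183 of 198 matrix cells (92.4%), all 57 mural cells and 11 of 26 myeloid cells (42.3%). Intervals cover counting error only, since cells of 1 capture share their source. Over the 5 captures with both kinds, the mural minus matrix difference in share averaged -57.99 percentage points for Pdgfra (SD 21.1, lower in 5 of 5) and 3.76 points for Pdgfrb (SD 4.20, higher in 3 and equal in the others). An exact sign-flip permutation test of these shares cannot go below p = 0.0625 with 5 captures, so no share could pass 0.05. Among the 7 members compared, Pdgfra, Pdgfa, Pdgfd and Pdgfrl reached that floor (exact p = 0.0625), Pdgfc gave 0.125, and Pdgfrb and Pdgfb gave 0.25.

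Most matrix cells carried both receptor transcripts. Pdgfra and Pdgfrb were found together in 157 of 198 matrix cells (79.3%), Pdgfra alone in 14, Pdgfrb alone in 26 and neither in 1. In mural cells they were together in 17 of 57 (29.8%), and the other 40 cells held Pdgfrb alone. These shares depend on the level asked for: at 10 FPKM or more of each, 57 matrix cells (28.8%) and 6 mural cells (10.5%) held both.

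**Figure D2:**
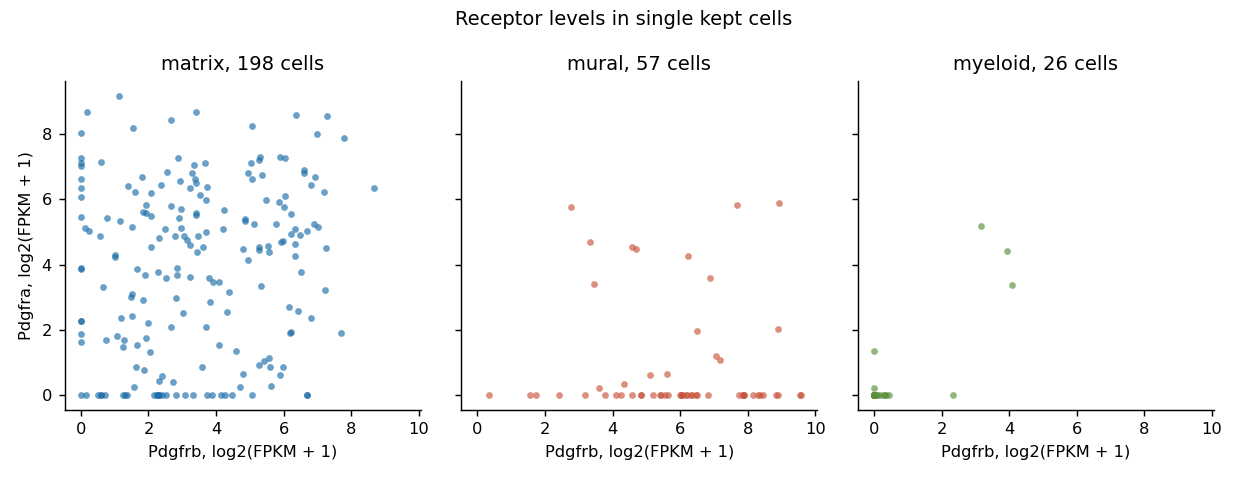
Pdgfra (vertical axis) against Pdgfrb (horizontal axis) in single kept cells, both as log2(FPKM + 1), with 1 point per cell and 1 panel per kind. Matrix cells fill the panel, with 157 of 198 above 0 on both axes, whereas 40 of 57 mural cells lie on the horizontal axis and most myeloid cells lie at or near the origin.

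Levels of Pdgfra within the mural and myeloid kinds were carried by few cells. The 16 of 57 mural cells with Lum, a collagen-binding proteoglycan of fibroblasts, at 100 FPKM or more held 97.0% of all mural Pdgfra, and 12 of these 16 had it detected against 5 of the other 41. Pdgfrb did not follow this division, being detected in all 16 and in all 41, with mean FPKM over cells of 90.9 and 159. Among myeloid cells, 4 of 26 also had Col1a1 of at least 1000 FPKM, and they held 97.5% of myeloid Pdgfra and 96.8% of myeloid Pdgfrb. Both splits were chosen after the values were seen and were not tested. The Lum-high cells had a median of 8356 detected genes against 5106 in the other mural cells. Wells seen under the microscope to hold more than 1 cell had been excluded by the study, and whether any remained was not tested. Without the Lum-high cells the Pdgfra difference was -5.52, and without the Col1a1-high cells the myeloid difference, then over 3 captures, was -5.96, values that follow from leaving out the cells that held most of the transcript.

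Among the ligands, Pdgfa stood out in mural cells. It lies on chromosome 5 (138976014 to 138997370, minus strand, GRCm38) and encodes the A chain. A 30-base stretch upstream of a RefSeq start of Pdgfa (chr5:138995017-138995046, minus strand, GRCm38.p6), which lies from 102 to 73 bases before that start, is shown because it holds 2 matches to the GC box on the opposite strand, in capitals. The 250-base window around it overlaps exons of other Pdgfa transcripts. Its counterpart from Pdgfd (chr9:6168314-6168343, plus strand, GRCm38.p6), from 172 to 143 bases before the start, holds the TATAAA letters, in capitals. The matches are descriptions of letters, not of bound sites, and both sequences come from RefSeq.
Pdgfa: gcccagcccCCGCCCtCCGCCCcttccgtc
Pdgfd: ctggccagtttcTATAAAaccctgggagac

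Pdgfa in mural cells was at 83.8, 91.5 and 165 FPKM in the PWD12 captures, 98.7 at PWD15 and 683 at PWD21. In matrix cells it was at 8.64, 29.4 and 4.77 FPKM at PWD12, 4.06 and 0 at PWD15, and 1.09 and 0.805 at PWD21. Each mural capture was above each matrix capture. The difference was 4.45 ± 0.84 (SE, 5 captures; limma, adjusted p = 0.0295), higher in 5 of 5 captures. A single PWD21 mural cell at 4890 FPKM set the level of 683, which was 82.3 without that cell. Pdgfa was detected in 50 of 57 mural cells (87.7%) and 56 of 198 matrix cells (28.3%), and where it was detected the median was 64.2 FPKM in mural against 1.41 in matrix cells. Matrix levels also leaned on few cells. The 50 matrix cells of PWD15 capture 1 gave 4.06 FPKM with their highest cell, at 182 FPKM, and 0.423 without it. In PWD12 capture 2, Pdgfa was at 223 and 238 FPKM in the pair of cells with near-identical profiles (r of 0.964) and at 198 FPKM in 1 other cell. The pair also had Rgs5 at 62.92 and 66.97 FPKM, and with stricter gates neither they nor the PWD15 cell counted as matrix cells.

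Myeloid levels of Pdgfa were 22.2, 0.138, 84.5 and 0.0733 FPKM in the same order of captures as for Pdgfra. They ran from below the lowest non-zero matrix levels to above the highest, and the difference from matrix cells was 1.10 ± 1.11 (limma, adjusted p = 0.531). On the opposite strand, 6330403L08Rik shares 813 of the 3119 exon bases of Pdgfa. Its mean was at most 0.109 FPKM in any kind, and since the quantification command in the methods sets no strand, reads on the shared bases cannot be assigned to either gene by strand.

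Pdgfb, the B chain that endothelial cells are known to present to pericytes, was seldom detected in the captured cells. It was detected in 3 of 198 matrix cells, 3 of 57 mural cells and 4 of 26 myeloid cells (15.4%, exact 95% interval 4.36 to 34.9%). Matrix levels were 0 in 6 captures and 0.0115 FPKM in the seventh. Mural levels were 51.2, 0 and 0.271 FPKM at PWD12, 0.0189 at PWD15 and 0 at PWD21, with 1 cell at 461 FPKM behind the first. Mural and matrix captures overlapped (difference 1.22 ± 0.88; limma, adjusted p = 0.581). Myeloid levels were 1.03, 0, 0.028 and 0.27 FPKM, and Pdgfb fell under the minimum mean of 1 FPKM for the test against matrix cells.

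The CUB-domain ligands Pdgfc and Pdgfd were at higher levels in matrix than in mural cells in 5 of 5 captures, though neither passed the test. Pdgfc in matrix cells was at 21.98, 24.9 and 22.2 FPKM at PWD12, 23.4 and 17.0 at PWD15, and 12.6 and 9.59 at PWD21. In mural cells it was at 0.110, 0 and 0 FPKM at PWD12, 8.39 at PWD15 and 11.6 at PWD21. The PWD12 and PWD15 mural captures lay below all matrix captures, while the PWD21 mural capture lay between the 2 PWD21 matrix captures. The difference was -3.02 ± 0.83 (limma, adjusted p = 0.117). In myeloid cells Pdgfc was at 45.9, 1.12, 0 and 7.80 FPKM, overlapping the matrix range (difference -1.56 ± 1.11; limma, adjusted p = 0.378). A cell at 362 FPKM held 66.4% of the myeloid sum.

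Pdgfd in matrix cells was at 3.35, 28.1 and 26.4 FPKM at PWD12, 31.9 and 15.5 at PWD15, and 65.3 and 58.3 at PWD21. In mural cells it was at 0.0256, 0 and 0.00643 FPKM at PWD12, 2.84 at PWD15 and 23.9 at PWD21. The mural PWD21 capture was the only one inside the matrix range, and the difference of -3.24 ± 0.72 missed the threshold (limma, adjusted p = 0.0568), lower in 5 of 5 captures. In myeloid cells Pdgfd was listed at 0 in all 26 cells, and a count of 0 there still leaves room for a share of 11.5%. Pdgfd passed the test against matrix cells (limma, adjusted p = 0.0138), but it met the minimum mean level through the matrix cells alone. Its myeloid values have no spread, so that call is no support. The size of its fitted difference depends on the pseudocount and sets no bound. The Lum-high mural cells held 99.9% of mural Pdgfd, so that 1 of the other 41 mural cells had a value above 0, of 0.23 FPKM.

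Ligand genes were also counted cell by cell. Among matrix cells, Pdgfc was detected in 91 cells (45.96%) and Pdgfd in 83 (41.9%), with 41 cells holding both, 50 Pdgfc without Pdgfd and 42 Pdgfd without Pdgfc. No ligand gene was detected in 41 matrix cells (20.7%), 1 in 98 (49.5%), 2 in 43 (21.7%), 3 in 15 and all 4 in 1. In mural cells 40 of 57 (70.2%) held exactly 1 ligand gene, and 36 mural cells held Pdgfa without any Pdgfra. Pdgfa and Pdgfrb were found together in all 50 mural cells with Pdgfa, which follows from the detection of Pdgfrb in all 57.

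**Figure D3:**
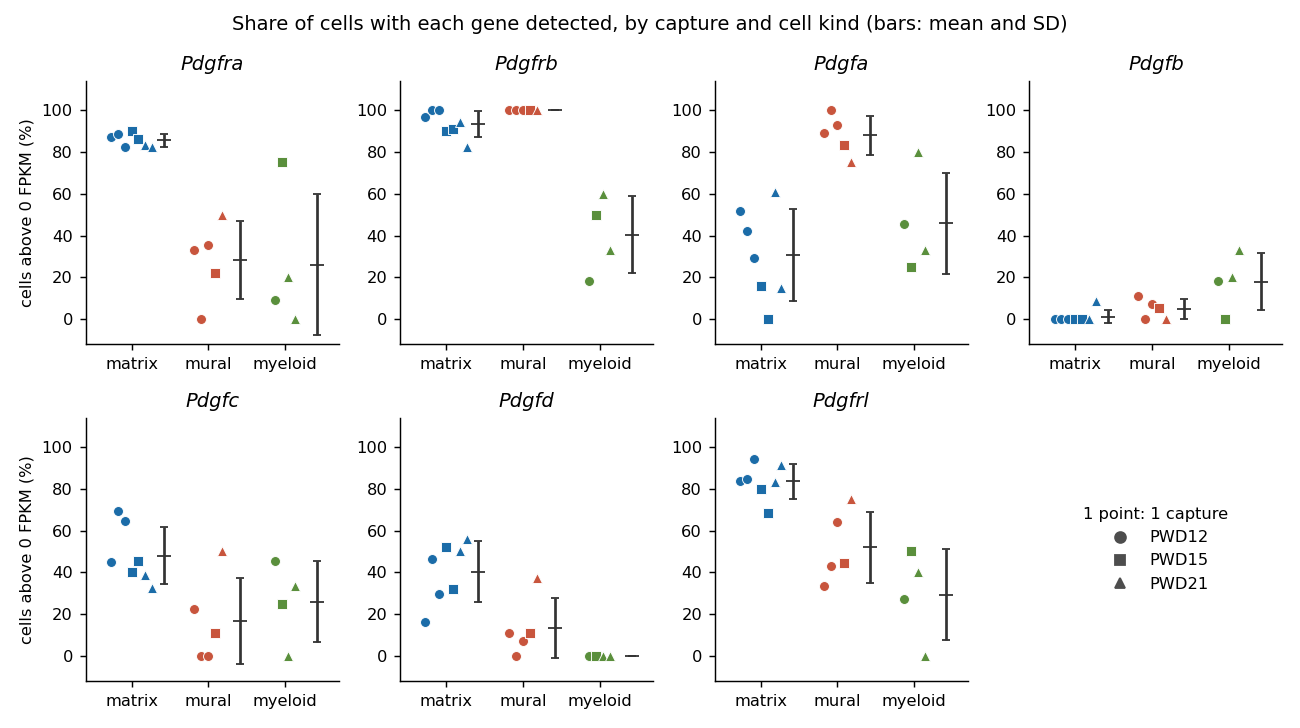
Percent of cells with a value above 0 FPKM for each gene on the vertical axis, by cell kind, 1 point per capture with at least 3 cells. Bars show the mean and SD of captures. Mural shares of Pdgfa run from 75% to 100% and those of Pdgfra from 0% to 50%, whereas all matrix shares of Pdgfra are above 80%.

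Pdgfrl, on chromosome 8 (40926212 to 40990785, plus strand, GRCm38), encodes a secreted protein that resembles the outer part of the receptors and lacks a kinase. It was the most abundant member in matrix cells, at 362, 195 and 357 FPKM at PWD12, 349 and 210 at PWD15, and 315 and 627 at PWD21. Its lowest matrix level was above the highest level of every other member in matrix cells. In mural cells it was at 208, 56.96 and 228 FPKM at PWD12, 58.3 at PWD15 and 83.9 at PWD21. The groups overlapped, and the difference of -1.53 ± 0.36 did not pass (limma, adjusted p = 0.0679), though mural was lower in 5 of 5 captures. In myeloid cells Pdgfrl was at 1.94, 64.9, 38.1 and 0 FPKM, below all matrix captures (difference -5.01 ± 1.255; limma, adjusted p = 0.0409). The 4 myeloid cells with high Col1a1 held 99.4% of the myeloid sum.

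Ranked by mean level, matrix cells held Pdgfrl (345 FPKM), Pdgfra (51.98), Pdgfd (32.7), Pdgfrb (29.7), Pdgfc (18.8), Pdgfa (6.97) and Pdgfb (0.00164). Only the first step was free of overlap between captures: Pdgfrl and Pdgfra did not overlap, and every later neighbour pair did. Mural cells held Pdgfa (224 FPKM), Pdgfrb (133), Pdgfrl (127), Pdgfb (10.3), Pdgfd (5.36), Pdgfra (4.74) and Pdgfc (4.02). There the sole gap lay between Pdgfrl and Pdgfb, and neighbours on either side of it overlapped. The places of Pdgfa and Pdgfb rest on 1 mural cell each: without its highest cell the mean was 104 FPKM for Pdgfa and 0.0581 for Pdgfb. In myeloid cells all neighbours overlapped, from Pdgfa (26.7 FPKM) and Pdgfrl (26.2) to Pdgfd at 0.

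Over all members, 2 of 7 passed in mural against matrix cells, Pdgfa higher and Pdgfra lower, where 1.69% of the 13821 genes tested passed (0.941% higher and 0.752% lower). In myeloid against matrix cells 3 of the 6 members tested passed, Pdgfra, Pdgfd and Pdgfrl, all lower, where 6.58% of 13056 genes passed and 4.89% were lower. Among these 3, Pdgfd met the minimum mean level through the matrix cells alone. The median difference of all genes was -0.22 in the first comparison and -0.999 in the second, so a typical gene was also lower in myeloid cells. Whether these genes passed depended on single captures and on the filter for low values, while their differences kept their direction. With 1 capture left out, mural differences ran from -4.16 to -3.16 for Pdgfra and from 3.47 to 5.16 for Pdgfa. Myeloid differences ran from -4.88 to -3.51 for Pdgfra, -5.60 to -4.93 for Pdgfd and -6.12 to -3.59 for Pdgfrl. Without PWD12 capture 1 or PWD15 capture 1, 0 members passed in mural cells, with differences of -3.66 and -3.62 for Pdgfra and 4.78 and 4.49 for Pdgfa. Without PWD12 capture 2, 0 passed in myeloid cells, with differences of -3.88 for Pdgfra, -5.33 for Pdgfd and -4.66 for Pdgfrl. Without the filter on genes of low mean level, 0 passed in either comparison, and the differences were the same as with it. Both comparisons share the matrix cells of PWD12 capture 2 and PWD21 capture 1.

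**Figure D4:**
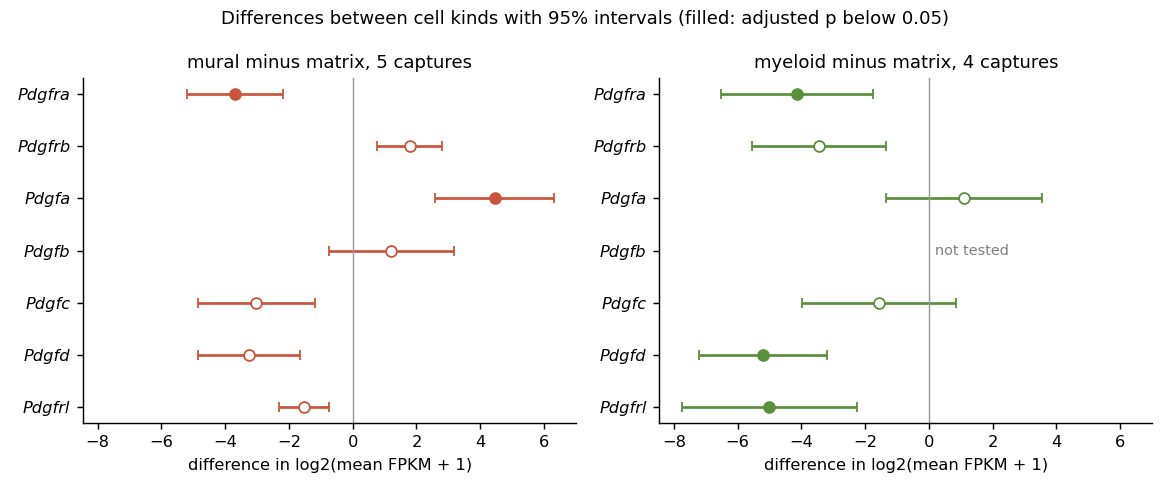
Differences in log2(mean FPKM + 1) from matrix cells, with 95% intervals from limma, for mural cells (5 captures) and myeloid cells (4 captures). Filled points have an adjusted p below 0.05 over all genes: Pdgfra and Pdgfa among mural differences, and Pdgfra, Pdgfd and Pdgfrl among myeloid ones.

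By day, no member passed in matrix cells in any of 3 contrasts, and the background was near 0 as well (limma). Of 13550 genes, 0% passed for PWD15 against PWD12, 0.00738% (1 gene) for PWD21 against PWD12 and 0% for PWD21 against PWD15, while 790, 969 and 745 genes had an unadjusted p under 0.05. The largest shifts were in the ligands. Matrix Pdgfa was 2.40 ± 1.05 lower at PWD15 than at PWD12 (difference -2.40; limma, adjusted p = 0.846) and 2.62 ± 1.05 lower at PWD21 (difference -2.62; limma, adjusted p = 0.666), and all 4 later captures were below all 3 PWD12 captures. That order rests on single cells: without the highest cell of each capture, PWD12 captures 1 and 3 were at 2.90 and 0.224 FPKM and the PWD21 captures at 0.618 and 0.235, so the days overlapped. Matrix Pdgfd was 2.05 ± 0.84 higher at PWD21 than at PWD12 (limma, adjusted p = 0.677), with both PWD21 captures above the other 5. Pdgfc was lowest in the PWD21 captures (difference -0.999 ± 0.59 from PWD12; limma, adjusted p = 0.763). For Pdgfra the interval of the PWD21 minus PWD12 difference ran from -0.67 to 1.34, and for Pdgfrb from -1.39 to 1.01.

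Shares of matrix cells by day were compared by an exact permutation test over 210 assignments of captures to days, and no member fell below 0.05 (smallest exact p = 0.114, for Pdgfrb and Pdgfc). The Pdgfc share averaged 59.7% at PWD12, 42.7% at PWD15 and 35.6% at PWD21, and the PWD15 shares (40% and 45.5%) overlapped those of PWD12 (45.2 to 69.2%). The Pdgfd share averaged 30.6%, 41.9% and 52.9% in the same order, with overlap between neighbouring days.

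**Figure D5:**
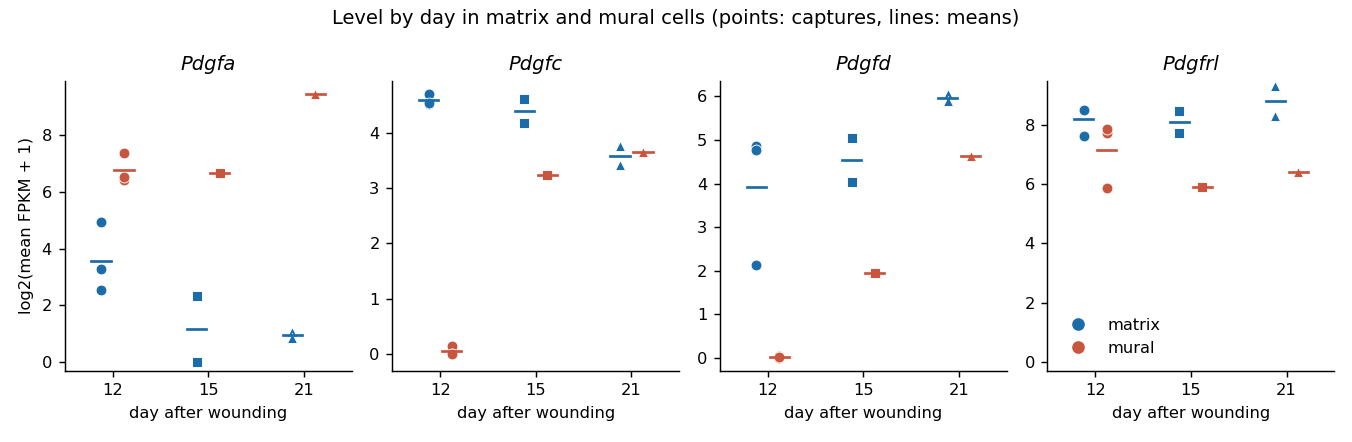
Levels of Pdgfa, Pdgfc, Pdgfd and Pdgfrl as log2(mean FPKM + 1) against the day after wounding, in matrix and mural cells, with 1 point per capture and a line at the mean of each day. Matrix Pdgfd is highest at day 21, and mural Pdgfc and Pdgfd are near 0 at day 12 and above it in the single captures of days 15 and 21.

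In mural cells, 3 PWD12 captures were set against 1 capture each of PWD15 and PWD21, and 0% of 12702 genes passed (limma, with 1352 at an unadjusted p under 0.05). Pdgfc was 3.39 higher at the later days and Pdgfd 3.27 higher. The later days had 1 capture each, so the fit took its spread from the PWD12 captures alone and measured none at the later days. All PWD12 mural captures were at or below 0.110 FPKM for both, and both later captures were at 2.84 FPKM or more. The PWD15 level of Pdgfd rested on 1 cell at 49.6 FPKM and was 0.0865 FPKM without it, inside the PWD12 range. Pdgfc was detected in 2 of the 18 PWD15 mural cells. Without the highest cell, the PWD21 levels were 13.7 FPKM for Pdgfd and 6.48 for Pdgfc. The Lum-high cells were unevenly spread over the same captures, at 1 of 9, 1 of 7 and 3 of 14 at PWD12, 7 of 18 at PWD15 and 4 of 8 at PWD21, where without them the Pdgfc difference was 1.93 and Pdgfd fell under the minimum mean level. The mural minus matrix difference itself was compared between days in 5 captures. For Pdgfc it was -4.37, -4.69 and -4.54 at PWD12, -1.38 at PWD15 and -0.11 at PWD21, with an exact permutation p of 0.1, the smallest that 20 assignments can give. For the other 6 members the exact p ran from 0.3 to 0.9.

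Other genes of the pathway were read from 4 lists. Of the 10 genes for ligand processing and binding, 9 were tested in mural against matrix cells, and Sparc alone passed, lower (difference -1.19 ± 0.15; limma, adjusted p = 0.00407). Sparc is a matrix protein that binds PDGF-B, and its levels ranged from 11479 to 25967 FPKM in matrix cells and 4671 to 8887 in mural cells, with no overlap. The list's median was -0.16, beside -0.22 for all genes, of which 1.69% passed. Cspg4, the NG2 proteoglycan of pericytes, was at 22.7 ± 18.1 FPKM in mural and 2.09 ± 3.29 in matrix cells (adjusted p = 0.0871, limma). Its mural levels of 1.75 FPKM in PWD12 capture 1 and 5.63 in PWD21 capture 1 lay inside the matrix range of 0 to 9.21. In the other direction, Pcsk5 (difference -2.48, adjusted p = 0.211, limma) and Lrp1 (-1.61, adjusted p = 0.301, limma) did not pass either. Against myeloid cells, Pcsk5, a proprotein convertase, Plat, the plasminogen activator that cuts PDGF-C, and Sparc passed, all lower in myeloid cells, of 8 tested (adjusted p = 0.0326, 0.0393 and 0.0154, limma). The list's median difference there was -1.61, beside -0.999 for all genes, of which 4.89% passed as lower.

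Of 15 receptor-proximal signalling genes, 0 passed in mural against matrix cells, where 1.69% of all genes passed. The list median was 0.06, beside -0.22 for all genes. The largest differences were in the adaptors Nck2 (1.68, adjusted p = 0.169) and Gab1 (1.51, adjusted p = 0.516) upward, and in Plcg1 (-1.17, adjusted p = 0.530), a phospholipase, and Sos1 (-0.56, adjusted p = 0.729), a Ras exchange factor, downward (limma). In the list for receptor down-regulation, 0 of 7 passed, with a median of 0.44, beside the same values for all genes. There the phosphatase genes Ptprj (0.97, adjusted p = 0.580) and Ptpn12 (0.89, adjusted p = 0.560) were highest, and the ubiquitin ligase gene Cblb (-0.59, adjusted p = 0.764) and Acp1 (-0.49, adjusted p = 0.676), another phosphatase, lowest (limma). Neither list had a called member in myeloid cells, of 14 and 7 tested, where 6.58% of all genes passed.

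Among the other class III receptors and their ligands, Il34, a ligand of the Csf1 receptor, passed in mural cells (difference 3.73 ± 0.79, 5 captures; limma, adjusted p = 0.0491), as 1 of 5 tested, beside 1.69% of all genes. Its mural levels were 170, 47.3 and 52.9 FPKM at PWD12, 112 at PWD15 and 1.29 at PWD21, and its matrix levels 9.71 or less, so the PWD21 mural capture lay inside the matrix range. Csf1r passed in myeloid cells, as 1 of 5 tested, beside 6.58% of all genes (difference 5.96 ± 1.11; limma, adjusted p = 0.0169). Its levels there ran from 130 to 498 FPKM against at most 11.6 in matrix cells. By day in matrix and in mural cells, 0 genes of the 4 lists passed, where at most 0.00738% of all genes did.

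Genes with the pattern most like each member were ranked by Pearson's r of log2(mean FPKM + 1) over 16 points, each 1 kind in 1 capture, among 9190 genes. The points share captures and the gates, so r is a description. Pdgfra ran closest to Mn1, Lum, Itgbl1 and Gxylt2 (r from 0.945 to 0.951). Pdgfrb ran closest to Osmr, Hoxa10, Cd248 and Imp3 (0.928 to 0.949), and Pdgfa to Tmem100, Tnfrsf21, Bcr and Pde4b (0.872 to 0.904). Pdgfrl had the closest partners of all, Fn1, Fkbp9, Ccdc80 and Jkamp (0.959 to 0.968), and Pdgfd had Fam220a, Cped1, Efna1 and Gm43413 (0.910 to 0.933). Pdgfc was less closely matched, by Hgf, Tanc2, Pigf and Selenon (0.793 to 0.860). The partners of Pdgfb (Gm6450, Tvp23a, Coq8a and Kcnip3, 0.821 to 0.955) rest on the 1 mural cell that set its level. Among the members themselves the highest r was 0.80, between Pdgfra and Pdgfrl, followed by 0.79 between Pdgfra and Pdgfd, while Pdgfra and Pdgfrb gave 0.28 and Pdgfra and Pdgfa gave -0.38.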

How the data were processed

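Viable tdTomato-high cells from wounds were captured on the Fluidigm C1 and sequenced as full-length SMART-seq2 libraries. The authors aligned paired reads with Bowtie 1.0.0 to mm10 with a GENCODE annotation, quantified them with RSEM, and deposited FPKM values for each cell. FPKM holds no counts, so count models were not used. Fragments per cell were estimated from the steps between low FPKM values of 9426 single-transcript genes, a procedure tested on simulated data. Cells under the study's minimum depth, above 11000 genes or above 15% mitochondrial FPKM were left out. No deposited per-cell column was left unused. The study's own normalization (SCnorm) and the batch correction of its output (ComBat) were not run.

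Levels were averaged over cells of each capture and kind, and log2(mean + 1) values were fitted for genes averaging 1 FPKM or more with limma 3.58.1 (variance trend, Benjamini-Hochberg over all genes, two-sided, threshold 0.05), with capture as a block between kinds. The genes used for gating were left out. Shares were compared by exact two-sided permutation tests. The RSEM command given in the methods sets no strand. Symbols, matched for 50376 of 50600 identifiers, and positions came from GENCODE M21 on GRCm38, the same assembly as mm10. RefSeq windows were held for 4 members. Named genes were all 7 members, the 4 most alike genes of each, and genes of 4 pathway lists that passed in mural against matrix cells, or the 2 largest differences each way. The myeloid values of called list genes, and the values of Cspg4, Pcsk5 and Lrp1, were added after they were seen. Members and lists were chosen with earlier results of these data known.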

Additional observations from a re-analysis of the deposited data

Results flagged for a closer look

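In 20 sets of 4 to 7 captures, 7 had a capture far from the others by Dixon's criterion. Chance meets it in about 1 set in 20 only where values are normally distributed. Some of these sets hold mostly zeros or rest on single cells, so that rate sets no expectation here. In matrix cells these were Pdgfa in PWD12 capture 2 (29.4 FPKM), Pdgfrl in PWD21 capture 2 (627 FPKM) and Pdgfb in PWD21 capture 2 (0.0115 FPKM, where the other 6 captures were at 0). In mural cells they were Pdgfa in PWD21 capture 1 (683 FPKM), Pdgfd in the same capture (23.9 FPKM) and Pdgfb in PWD12 capture 1 (51.2 FPKM). In myeloid cells Pdgfc stood apart in PWD12 capture 2 (45.9 FPKM). The cause was not tested. A single cell accounted for most of the 683 FPKM of Pdgfa and all of the 51.2 FPKM of Pdgfb. The 29.4 FPKM of Pdgfa came mainly from 3 cells, of which 2, at 223 and 238 FPKM, had near-identical profiles and were in no kind with stricter gates.

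Members were also present in cells that no comparison used. Of the 11 kept cells in no kind, 63.6% had Pdgfra, 63.6% had Pdgfa, 36.4% had Pdgfrl and 100% had Pdgfrb above 0 FPKM. Of the 75 cells outside the quality limits, 30.7% had Pdgfra, 72% Pdgfrb, 46.7% Pdgfa, 14.7% Pdgfc, 13.3% Pdgfd and 26.7% Pdgfrl above 0. Only shares above a set limit of 3 cells, 27.3% of 11 and 4% of 75, are listed. Members at or below it were also seen, Pdgfc in 3 and Pdgfd in 2 of the 11 cells, and Pdgfb in 3 of the 75. Pdgfb was seen in 0 of the 11.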

How the results depend on the processing

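In mural against matrix cells, 2 members passed in the analysis as reported. The count was 1 with a pseudocount of 0.1, 0 without the filter on low values, 5 without quality limits, 6 with means of log2 values over cells, 4 with weights by number of cells, 3 with stricter gates and, in an alternative chosen after seeing the data, 4 without mural cells at 100 FPKM of Lum. The cells left out there held most of the mural Pdgfra and Pdgfd, so that count is no support. Leaving out 1 capture gave 0 to 2 (0 without PWD12 capture 1 or PWD15 capture 1, 1 without PWD12 capture 2 or 3). Over the same settings, genes called ranged from 16 without the low filter to 651 with means of log2 values, against 234. Pdgfra and Pdgfa kept their direction in every setting run.

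In myeloid against matrix cells, 3 members passed as reported. The count was 0 with a pseudocount of 10, without the low filter or with at least 5 cells a kind, 1 with a pseudocount of 0.1 or without quality limits, and 4, with Pdgfrb added, with cells scaled to a total of 1000000, means of log2 values or weights by number of cells. Leaving out 1 capture gave 0 to 2 (0 without PWD12 capture 2, 1 without PWD21 capture 1 or 2, 2 without PWD15 capture 2). Genes called ranged from 30 to 1370, against 859. Leaving out the 4 myeloid cells with high Col1a1, also chosen after seeing the data, gave 4 members, and is no support either, since those cells held most of the myeloid Pdgfra, Pdgfrb and Pdgfrl.

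In mural cells by day, 2 members (Pdgfc and Pdgfd) passed without the low filter, as did 1783 genes of all, against 0. The spread in that fit came from the PWD12 captures alone. In matrix cells by day 0 members passed in any setting, and the share test by day gave 0 to 1 leaving out a capture, with 1, Pdgfrb, without either PWD21 capture. Cells with both receptors made up 68.2% of matrix cells at 1 FPKM and 28.8% at 10 FPKM, against 79.3%, and 10.5% of mural cells at 10 FPKM, against 29.8%. The cause of these changes was not tested.

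Differences that turned direction had not passed the test in any analysis. For Pdgfrl, PWD15 minus PWD12 in matrix cells became 0.040 with weights by number of cells, and 0.025 with the replicate block. Pdgfrb in PWD21 minus PWD12 became 0.00023 without quality limits, and -0.13 in PWD21 minus PWD15 with weights. Pdgfa in PWD21 minus PWD15 became 0.68 with a pseudocount of 0.1, 0.28 with means of log2 values and 0.70 with stricter gates. In mural cells by day, Pdgfra became -0.025 with weights, Pdgfrb 0.23 without Lum-high cells and Pdgfa -0.35 with means of log2 values. Leaving out 1 capture spanned 0 for Pdgfa in myeloid against matrix cells (-0.32 to 1.72). In matrix PWD15 minus PWD12 it did so for Pdgfc (-0.42 to 0.027), Pdgfd (-0.28 to 1.12) and Pdgfrl (-0.48 to 0.25). In PWD21 minus PWD12 it did so for Pdgfrb (-0.53 to 0.15), and in PWD21 minus PWD15 for Pdgfrb (-0.29 to 0.39) and Pdgfa (-1.38 to 0.96). In mural cells by day it did so for Pdgfra (-0.52 to 1.33) and Pdgfrb (-0.69 to 0.49).

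Capture numbers did not pair captures of different days (r of deviations between -0.007 and 0.025), and the replicate block by day gave no member a call. Without the capture block, 2 members passed in mural and 4 in myeloid cells. In mural cells by day, the replicate block and leaving out PWD15 capture 1 or PWD21 capture 1 could not be fitted. Few cells per capture limit precision, most of all for myeloid cells, with 3 to 11 a capture.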
